A study of Mus musculus with 4 samples.

Results

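The regions described here are H3K9me3 islands in the distal 5 Mb of the mouse autosomes, the end of each chromosome that lies away from its centromere. An autosomal island was a member when its end lay within 5 Mb of the end of its chromosome in the mm10 genome build, a rule that uses position and no measured value. It kept 800 of 25424 islands in the knockout list and 434 of 12371 islands in the wild-type list. H3K9me3, trimethylated lysine 9 of histone H3, was mapped by ChIP-seq, in which an antibody to the mark pulls down chromatin fragments for sequencing. The cells were CD8+ T cells of Suv39h1-KO mice (KO) and of wild-type littermates (WT), C57BL/6 in strain. Both had been activated through CD3 and CD28 in the presence of IL-2 for 3 days. Age and number of animals are not in the labels, and neither the loss of Suv39h1 nor the cell type can be checked from islands. Each genotype gave a single H3K9me3 library, so no test between KO and WT was possible and the values describe these libraries.

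H3K9me3 is a mark of silent chromatin. SUV39H1 and its paralogue SUV39H2 are among the enzymes that write it. HP1 proteins bind it, and it is known above all from the repeats around centromeres and from telomeres. Mouse chromosomes have their centromere near the proximal end, so the distal end leads through subtelomeric sequence to a telomere without passing a centromere. An island is a stretch of neighbouring windows in which the authors' peak caller found more reads than its threshold required. A place outside all islands may still carry the mark below that threshold.

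A few distal promoters under islands are shown first, as examples of high and low CpG content. They were picked after their values were seen and are not typical of their groups. The median number of CpG pairs was 3 in WT alone, 1 in KO alone and 1 in both. All are RefSeq sequences of 300 bases on GRCm38.p6, written 5′ to 3′ on the strand of the gene, from 250 bases before to 50 after the annotated start, with every CpG pair in capitals. The promoters of Tcfl5 (chr2:180642642-180642941, minus strand) and Zranb2 (chr3:157533915-157534214, plus strand) are rich in CpG and lay under an island in WT alone. The promoter of Resf1 (chr6:149309164-149309463, plus strand) also lay under an island in WT alone, and Resf1 encodes a factor known for the silencing of retroelements. The promoter of Nalcn (chr14:123627095-123627394, minus strand) lay under an island in KO alone, and that of the olfactory receptor gene Olfr769 (chr10:129112374-129112673, minus strand) under islands in both.
Tcfl5: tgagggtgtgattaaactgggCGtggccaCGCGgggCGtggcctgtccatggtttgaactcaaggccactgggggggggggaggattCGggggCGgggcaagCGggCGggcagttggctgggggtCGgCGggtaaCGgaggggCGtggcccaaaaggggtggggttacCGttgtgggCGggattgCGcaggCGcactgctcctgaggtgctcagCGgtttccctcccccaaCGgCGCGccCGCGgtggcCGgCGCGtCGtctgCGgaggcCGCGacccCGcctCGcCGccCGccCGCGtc
Zranb2: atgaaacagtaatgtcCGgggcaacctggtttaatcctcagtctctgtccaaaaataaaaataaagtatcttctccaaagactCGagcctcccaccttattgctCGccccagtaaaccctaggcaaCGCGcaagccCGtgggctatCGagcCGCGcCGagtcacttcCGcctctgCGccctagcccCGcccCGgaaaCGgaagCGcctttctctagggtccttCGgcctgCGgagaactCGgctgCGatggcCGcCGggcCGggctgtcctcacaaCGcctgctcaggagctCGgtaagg
Resf1: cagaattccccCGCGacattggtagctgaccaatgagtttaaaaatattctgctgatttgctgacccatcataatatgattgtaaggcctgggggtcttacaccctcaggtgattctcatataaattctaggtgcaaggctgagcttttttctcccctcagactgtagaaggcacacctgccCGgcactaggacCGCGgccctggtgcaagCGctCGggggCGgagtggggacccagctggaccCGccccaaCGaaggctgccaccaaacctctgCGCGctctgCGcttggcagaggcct
Nalcn: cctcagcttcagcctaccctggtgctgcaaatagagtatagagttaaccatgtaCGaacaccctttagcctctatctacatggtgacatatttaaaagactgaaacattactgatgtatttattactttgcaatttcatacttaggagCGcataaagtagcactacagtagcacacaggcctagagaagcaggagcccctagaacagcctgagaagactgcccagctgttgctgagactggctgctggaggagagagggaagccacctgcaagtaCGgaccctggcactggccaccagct
Olfr769: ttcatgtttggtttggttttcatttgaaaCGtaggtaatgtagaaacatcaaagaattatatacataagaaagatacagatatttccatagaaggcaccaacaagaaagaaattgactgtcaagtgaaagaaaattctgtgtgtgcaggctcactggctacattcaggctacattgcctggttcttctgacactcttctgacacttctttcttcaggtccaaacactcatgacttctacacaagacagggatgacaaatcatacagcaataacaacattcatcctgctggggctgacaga

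Distal H3K9me3 islands were more numerous and covered more sequence in KO than in WT. Their summed length was 8.09 Mb in KO and 4.74 Mb in WT, or 1.71 times as much, and KO had 1.84 times as many islands. On the rest of the autosomes the ratio was 1.83 for cover and 2.06 for number, and in the first 10 Mb of the autosomes 1.63 and 1.87. Distal islands had a median length of 8.5 kb in KO and 9.5 kb in WT. Of the island length, 27.5% in KO and 36.7% in WT lay in protein-coding genes, which fill 44.3% of the windows. Within the last 5 Mb, islands covered 8.5% of the sequence in KO and 4.99% in WT, against 10.2% in KO and 5.56% in WT on the rest of the autosomes. Assembly gaps are part of these denominators. With the KO list reduced to as many islands as the WT list, keeping those with most reads, the ratio of island numbers was 0.908 and that of cover 1.16. That setting can only lower both.

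The wider KO cover was not shared by all chromosome ends. KO cover exceeded WT cover in the last 5 Mb of 10 of 19 autosomes, and WT cover exceeded KO cover in the other 9. Over all stretches of 5 Mb, laid from the chromosome ends inwards, 77.8% had more cover in KO, and outside the distal ones the count was 357 of 453. Over each autosome without its last 5 Mb, KO cover was higher on 19 of 19. The plot of cover by chromosome shows most of the difference in windows with few genes. In the 6 windows with under 30 protein-coding genes each (chromosomes 3, 12, 13, 14, 17 and 18), islands covered 5.59 Mb in KO and 2.42 Mb in WT, a ratio of 2.31, and KO cover was the higher in 6 of 6. Stretches of 5 Mb with under 30 genes elsewhere had more KO cover in 199 of 215 cases (92.6%) and a ratio of 2.10. In the 13 windows with 30 genes or more, they covered 2.51 Mb in KO and 2.33 Mb in WT, a ratio of 1.08, and KO cover was the higher in 4 of 13. Stretches of 5 Mb with 30 genes or more outside the distal windows had more KO cover in 158 of 238 cases and a ratio of 1.51. The windows were also read in steps of 1 Mb. Distal steps with 1 to 4 genes were covered over 17.6% in KO and 8.12% in WT (30 steps), against 14.6% in KO and 6.55% in WT for such steps elsewhere. Distal steps with 5 to 12 genes were covered over 2.85% in KO and 3.12% in WT (31 steps), against 7.15% in KO and 5.73% in WT elsewhere. With 13 genes or more, cover was 3.71% in KO and 3.74% in WT (30 steps), against 4.9% in KO and 4.45% in WT elsewhere. The limit of 30 genes was chosen after the data were seen.

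**Figure D1:**
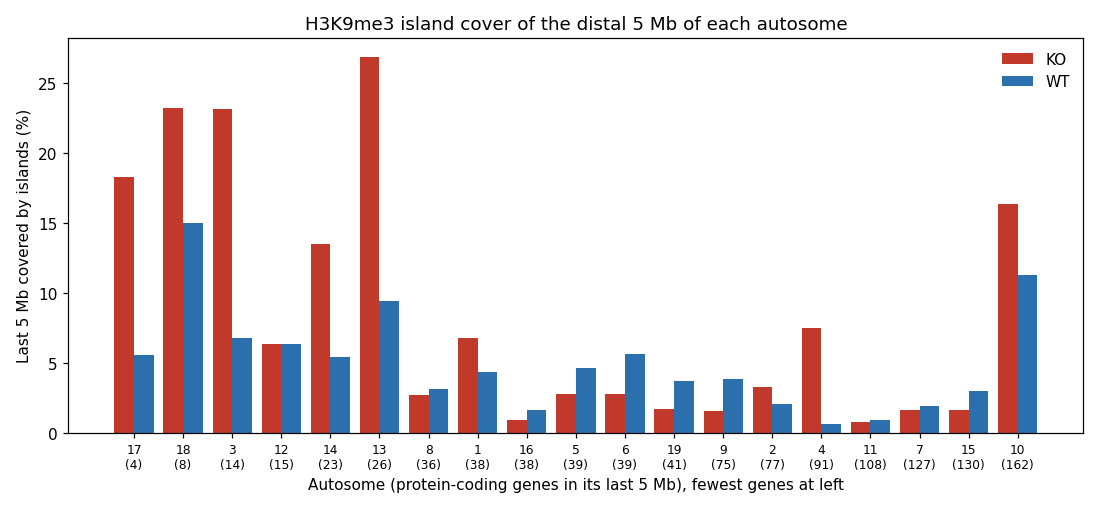
Percent of the last 5 Mb of each autosome covered by islands in KO (left bar) and WT (right bar), with 1 library each. Autosomes are ordered by the number of protein-coding genes in that window, given in brackets, and the 6 windows with under 30 genes have KO cover from 6.35% to 26.9%.

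Chromosome 13 had the widest distal cover in KO, 26.9% of its last 5 Mb, against 9.39% in WT. Chromosomes 18 (23.2% in KO and 15% in WT), 3 (23.1% and 6.74% in the same order) and 17 (18.3% and 5.51%) followed. These 4 windows held 56.6% of the distal cover in KO and 38.6% of that in WT. Chromosome 10, whose window holds 162 genes, was covered over 16.4% in KO and 11.3% in WT. The widest ratio, 12.8, was on chromosome 4, where KO had 38 islands over 372.5 kb and WT had 4 islands over 29 kb. The narrowest was on chromosome 9, with 11 islands over 76 kb in KO and 24 islands over 193 kb in WT, a ratio of 0.394. Chromosomes 19, 6, 15, 16 and 5 also had less cover in KO, with ratios of 0.459, 0.492, 0.551, 0.557 and 0.602. On chromosome 12 cover was 317.5 kb in KO and 316 kb in WT. Leaving out any 1 autosome kept the ratio of distal cover between 1.57 and 1.78.

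Within the last 5 Mb, cover was highest in the outermost 2 Mb. It averaged 11.3% in KO and 7.75% in WT over the last 2 Mb, and 6.66% in KO and 3.14% in WT over the next 3 Mb. The outer zone had the higher cover on 14 of 19 autosomes in KO and on 16 of 19 in WT. With any 1 autosome left out, the outer zone exceeded the inner by 1.51 to 2.08 times in KO and by 2.18 to 3.08 times in WT. The outer zone held 12.8 protein-coding genes per Mb and the inner zone 10.6. The KO over WT ratio of cover was 1.45 in the last 2 Mb, 2.12 in the next 3 Mb and 2.15 between 5 and 10 Mb from the end. In KO, single steps of 1 Mb further in reached as high, such as 12.4% between 18 and 19 Mb from the end, where WT had 6.46%. In the last 1 Mb KO cover was the higher on 9 autosomes and WT cover on 9, and the median over autosomes was 6.7% in KO and 6.9% in WT. Averaged over autosomes, the last 2 Mb lay above the rest in both genotypes, by 1.11 times in KO and 1.41 times in WT. With chromosome 3 left out, KO cover of the last 2 Mb was 9.71%, against 10.2% on the rest of all autosomes. WT cover was 6.84% or more with any 1 autosome left out, against 5.56% on the rest. Between 1 and 2 Mb from the end the median over autosomes was 3.1% in KO and 4.25% in WT. The last 5 Mb as a whole lay below the rest, by factors of 0.835 in KO and 0.897 in WT. When each list was limited to its denser islands, those with reads per kb over the list's median, the last 5 Mb also lay above the rest, at 1.06 in KO and 1.1 in WT.

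**Figure D2:**
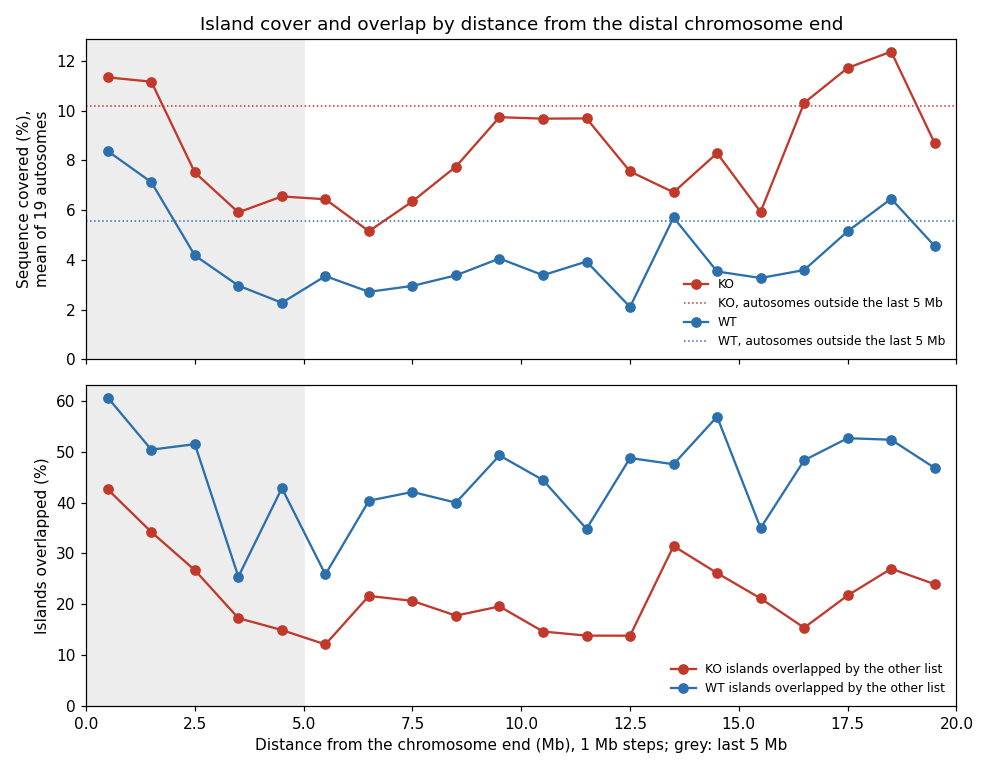
Upper panel: percent of sequence covered in 1 Mb steps from the distal chromosome end, mean of 19 autosomes, in KO and WT, with dotted lines for the autosomes outside the last 5 Mb (10.2% in KO, 5.56% in WT). Lower panel: percent of islands ending in each step that were overlapped by an island of the other list, which in the outermost step was 42.6% in KO and 60.7% in WT.

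The share of islands overlapped by at least 1 bp of the other list was highest in the outermost step. Of the distal KO islands, 237 (29.6%, exact 95% binomial interval 26.5 to 32.9) were overlapped by at least 1 bp of a WT island. Of the distal WT islands, 217 (50%, 45.2 to 54.8) were overlapped by a KO island. Over all autosomal islands, these members included, the shares were 24.9% in KO and 48% in WT. Without chromosome 10 the distal shares were 27.5% in KO and 47.7% in WT. The intervals cover counting of islands only, and neighbouring islands are not independent. In KO the share was lower at each step inwards, with 42.6% in the last 1 Mb, 34.2% in the next, then 26.7%, 17.3% and 14.9%. WT cover, which sets how much there is to overlap, also fell over these steps. It was 8.38%, 7.13%, 4.18%, 2.97% and 2.28%. Whether the share of KO islands differs from what this cover alone would give was not tested. In WT the share overlapped by KO was 60.7%, 50.4%, 51.5%, 25.4% and 42.9% over the same steps. Within the distal windows 1.77 Mb lay in islands of both lists, 6.30 Mb in KO alone and 2.97 Mb in WT alone, a Jaccard index of 0.160 against 0.127 on the rest of the autosomes. With at least 50% of an island required to be covered, the shares were 22.0% in KO and 38.0% in WT.

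Many members had no partner nearby. The nearest island of the other list lay a median of 46.5 kb away from the 563 unpartnered KO islands and 38 kb away from the 217 unpartnered WT islands. It was over 100 kb away for 156 of them in KO and 63 in WT. A partner was found for 29.6% of distal KO and 50% of distal WT islands. Over all autosomal islands the shares were 24.9% in KO and 48% in WT. Gaps were not computed for islands elsewhere, so these counts do not show a trait of chromosome ends. In the windows with under 30 genes 25.3% of KO islands and 57.2% of WT islands had a partner, and in the gene-richer windows 39.2% of KO and 42.9% of WT islands.

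The outermost island of each list lay close to the end on most autosomes. It ended within 200 kb of the chromosome end on 14 autosomes in KO and on 15 in WT, and the outermost KO and WT islands overlapped each other on 10 of 19. No island of either list came closer than 100.111 kb. Whether reads can be placed nearer the end, or an assembly gap lies there, was not checked. That stretch can therefore not be called free of the mark. On chromosome 9 both outermost islands ended 100.111 kb from the end, the KO island at chr9:124491501-124495000 and the WT island at chr9:124490501-124495000. On chromosome 12 the outermost islands were chr12:120012001-120028500 in KO and chr12:120003001-120023500 in WT. On chromosome 7 the last 2.19 Mb held no island in either list, and on chromosome 13 no island lay in the last 803.64 kb in KO or the last 818.64 kb in WT.

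Reads per kb within islands had like quartiles in both lists, and their maximum was 149 in KO and 93.4 in WT. The authors' count per island, divided by its length, had a median of 40.8 reads per kb in KO (quartiles 38.7 and 43.3) and 41.1 in WT (38.9 and 44.1). On the rest of the autosomes the medians were 40.1 in KO and 40.4 in WT. These counts are not scaled to library depth, and the lowest density called was 32.3 in KO and 32.8 in WT, so like medians do not show equal enrichment. Among 120 pairs of distal islands that overlapped each other by at least 50% of each, the median KO over WT ratio of reads per kb was 1.01, with KO higher in 63 and lower in 57. The median ratio was 0.988 in pairs overlapping by 80%. The pair with the lowest ratio, at chr16:98000501-98017000 in KO, had 48.1 reads per kb in KO and 62.4 in WT, and a pair in Flt1, a receptor gene for vascular growth factors, had 55.6 in KO and 45.4 in WT. Past 1.5-fold there were 0 distal pairs in either direction, against 0% with KO higher and 0.0311% with KO lower over all autosomal pairs. By density, the share of KO islands overlapped by WT was 17.5% in the fifth of distal islands with fewest reads per kb (interval 12 to 24.3) and 37.5% in that with most (30 to 45.5). In WT the share showed no such order, with 40.2% (29.9 to 51.3) at the lowest densities, then 60.9%, 52.3%, 50.6% and 46.0% (35.2 to 57.0).

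**Figure D3:**
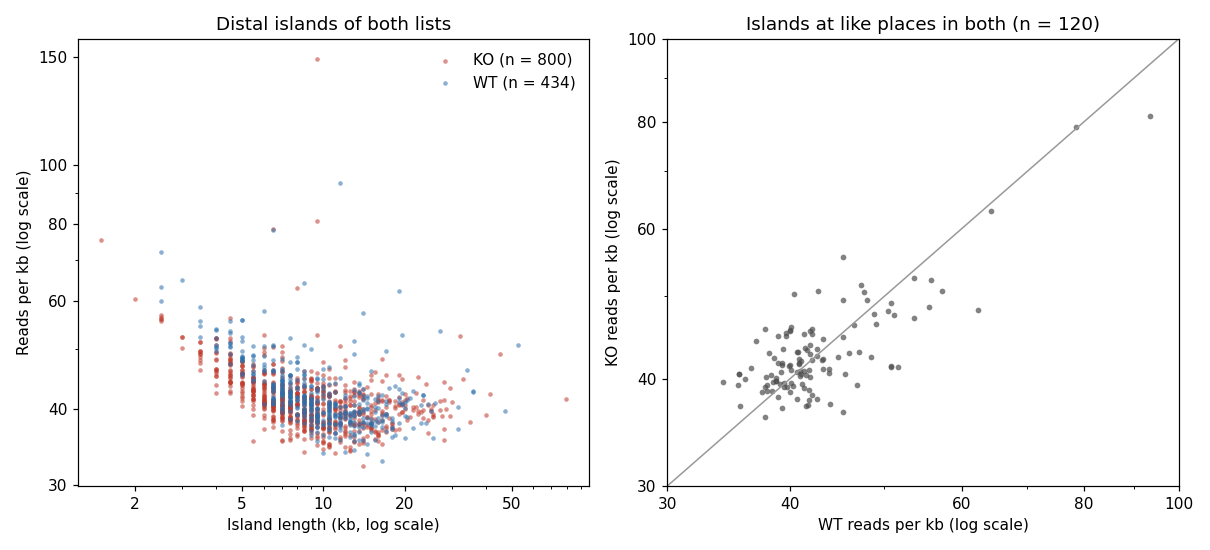
Left: reads per kb against length of the 800 KO and 434 WT distal islands, both axes on a log scale. Right: KO against WT reads per kb of 120 pairs of distal islands at like places, both axes on a log scale, with the line of equality (median ratio 1.01). Short islands have the higher densities in both lists.

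Of the densest distal islands, some were called in both lists and some in 1. An island in the predicted gene Gm39469 reached 81.2 reads per kb in KO (chr9:124268501-124278000) and 93.4 in WT (chr9:124268501-124280000), the highest density among distal WT islands. In Tmem267 an island was called at exactly the same place in both, chr13:119596501-119603000, with 512 reads in KO and 510 in WT. The densest distal KO island, chr13:119608501-119618000, across the end of Tmem267, held 1415 reads at 149 reads per kb, and no WT island overlapped it. Further dense islands were a KO island of 75.3 reads per kb in Lrmp (chr6:145126501-145128000), 510 kb from the nearest WT island, and WT islands of 72 in Hhat, the acyltransferase of Hedgehog proteins, and of 65 at chr11:120756501-120759500. The Hhat island was overlapped by KO over its whole length, and the island on chromosome 11 had no KO partner.

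Among the longest islands was that over the imprinted Kcnq1 domain. Kcnq1 encodes a potassium channel, and Kcnq1ot1, transcribed from within it, is the long noncoding RNA known to silence neighbouring genes on the paternal chromosome. The KO island chr7:143207501-143252500 held 2208 reads at 49.1 per kb, and the WT island chr7:143201001-143253500 held 2665 reads at 50.8 per kb. The KO island lay wholly within the WT island, which was the longest distal one in WT at 52.5 kb. The longest distal KO island, 79.5 kb at chr3:158250501-158330000 inside Lrrc7, was overlapped by WT islands over 40.9% of its length. The KO islands at chr17:93706501-93746500 (40 kb, no WT island) and chr13:118413501-118448500 (35 kb, 25.7% overlapped) lay outside annotated genes. So did the WT islands chr13:116736501-116783500 (47 kb, 80.9% overlapped) and chr10:130233501-130265000 (31.5 kb, 30.2% overlapped). Mucl2 lay under an island of 32 kb in KO (chr15:103868001-103900000) and of 27 kb in WT (chr15:103873001-103900000), with 52.6 and 53.6 reads per kb in that order. Of the other long islands, 3 in KO and 1 in WT lay in the olfactory receptor cluster of chromosome 10, 2 in WT over Dok6 and 1 in WT over the start of Syt14.

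With all islands counted, 117 distal genes carried an island in KO and 133 in WT. Of 1091 protein-coding genes, taken with 2 kb on each side, 38 (3.48%) had an island in KO alone and 54 (4.95%) in WT alone. Over all autosomal protein-coding genes the shares were 6.52% in KO alone and 6.77% in WT alone. A further 79 had islands in both (7.24%, against 8.03% over all), and 920 had none. Islands of both lists in a gene need not overlap each other. In Slc6a20a, for example, the WT island lay 17.5 kb from the nearest KO island. Of the genes in KO alone, 19 were olfactory receptor genes. Without olfactory and vomeronasal receptor genes, 19 of 1017 distal genes had an island in KO alone (1.87%) and 46 in WT alone (4.52%), against 5.09% in KO alone and 6.75% in WT alone of the genes elsewhere. Among the 79 genes in both, cover was longer in KO in 25, longer in WT in 37 and equal in 17. The counts became 22 in KO alone and 83 in WT alone when the KO list was reduced to the WT number, a setting that drops KO islands only. With each list limited to its denser islands the order turned, with 45 genes in KO alone and 37 in WT alone.

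Genes on a list of mainly neuronal adhesion and channel genes carried some of the longest stretches. Of its 22 distal genes, 1 had an island in KO alone, 3 in WT alone, 10 in both and 8 in neither, and some have another function, such as Dnah11, an axonemal dynein gene. Sox5, counted in both, lies partly outside the windows, and its 2.58 kb in KO and 14 kb in WT lay wholly outside them. Their summed cover was 1285 kb in KO and 562 kb in WT, while the median per gene was 1.29 kb in KO and 9.75 kb in WT, so the sum rests on a few long genes. Over all distal genes the median was 0 in both. Fgf14, which encodes an intracellular growth factor homologue that acts on sodium channels, had 274 kb in 23 KO islands and 50 kb in 4 WT islands. Lrrc7, a postsynaptic scaffold gene, had 258.5 kb in KO and 93 kb in WT. Negr1, a neuronal adhesion gene, had 179 kb in 16 KO islands and 13 kb in 1 WT island, which no KO island overlapped. Syt14, of the synaptotagmin family, had less in KO, with 41.5 kb in KO and 95.9 kb in WT. The genes with islands in 1 list were Kcnj6, an inwardly rectifying potassium channel gene (13 kb in KO), and Pard3, Vipr2 and Tmtc1 (23, 10.5 and 7 kb in WT alone).

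**Figure D4:**
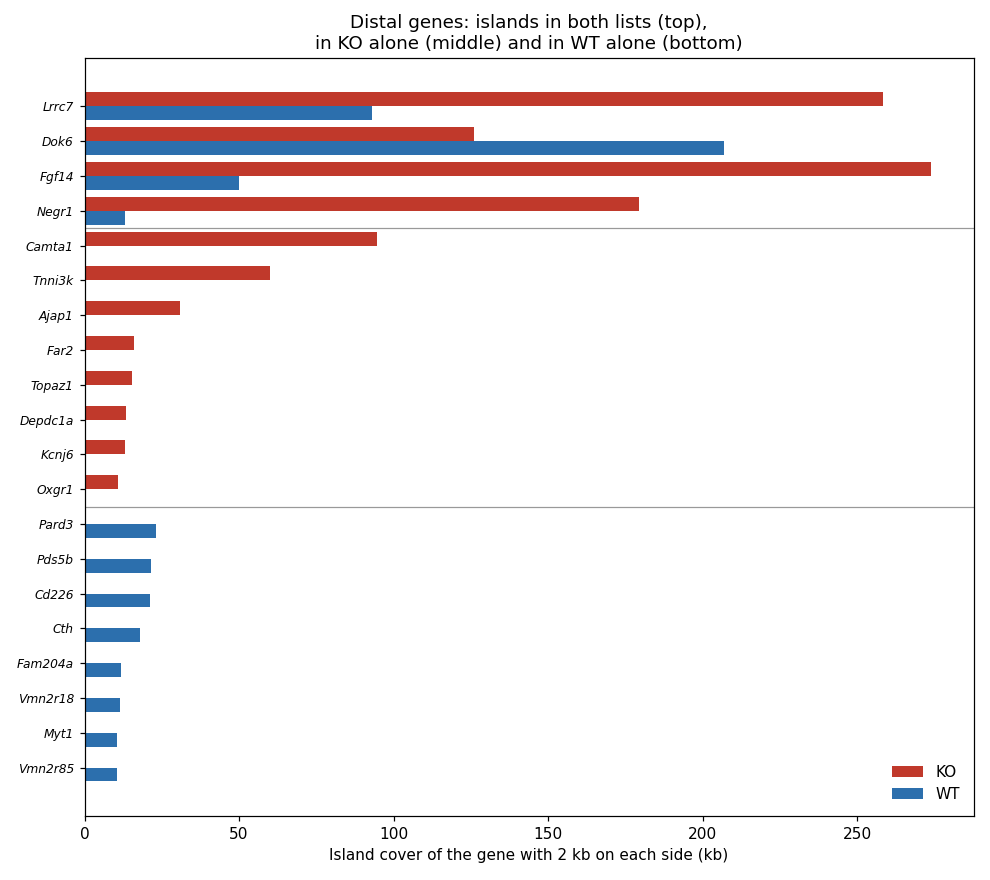
Island cover in kb, KO bar above WT bar, of 4 of the distal genes with most cover in both lists together (top), the 8 with most in KO alone (middle) and the 8 with most in WT alone (bottom), each gene with 2 kb on each side. Of the upper 4, Dok6 is the 1 with more cover in WT, 207 kb against 126 kb in KO, and WT-alone cover does not pass 23 kb.

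In KO alone the widest gene cover was 94.5 kb in 11 islands over Camta1, which encodes a calmodulin-binding transcription activator, and 59.9 kb over the heart kinase gene Tnni3k. Both genes lie partly outside the last 5 Mb, and 18.5 kb of the Camta1 cover and 4.41 kb of the Tnni3k cover lay inside it. Ajap1, a gene of adherens junctions, followed with 31 kb, Far2, a fatty acyl-CoA reductase gene, with 16 kb, and Topaz1, a gene of male germ cells, with 15.5 kb. Depdc1a had 13.5 kb and Oxgr1, a receptor for oxoglutarate, 10.9 kb. In WT alone the polarity gene Pard3 led with 23 kb. The cohesin-associated gene Pds5b had 21.5 kb, and Cth, an enzyme gene of cysteine synthesis, 18 kb. Fam204a (11.7 kb), Vmn2r18 (11.4 kb), the neural zinc finger gene Myt1 (10.7 kb) and Vmn2r85 (10.6 kb) completed the leading genes. Stard13, covered in both lists, had 6 kb in KO and 69 kb in 7 WT islands, and was picked out after its values were seen.

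Distal genes of T cell function lacked islands about as often as distal genes at large, of which 84.3% had none in either list. Of 23 surface and cytokine genes, 0 had an island in KO alone, 1 in WT alone and 2 in both. The 20 without any included the chemokine receptor genes Ccr2, Cxcr6 and Cx3cr1 of chromosome 9 and the costimulatory receptor genes Tnfrsf4 and Tnfrsf18 of chromosome 4. The gene in WT alone was Cd226, a costimulatory receptor of T and natural killer cells, with 21.2 kb in 2 islands. Ccr9, the gut-homing chemokine receptor gene, had 3.96 kb in KO and 4.46 kb in WT, and Cr2, a complement receptor gene of B cells, 7.5 kb in KO and 13.5 kb in WT. Of 18 signalling and transcription genes, Socs6, of the suppressors of cytokine signalling, had an island in WT alone (5.83 kb), and Dok6, an adaptor gene of receptor tyrosine kinases, had 126 kb in KO and 207 kb in WT. The other 16, among them Socs3, Nr4a1, Stat2 and Stat6, had none. Of 21 distal imprinted genes, Kcnq1 and Kcnq1ot1 had islands in both and 19 had none, H19 and Igf2 included.

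The receptor families of smell are set beside the shares over all autosomal protein-coding genes, 6.52% in KO alone, 6.77% in WT alone and 8.03% in both. Of 68 distal olfactory receptor genes, which encode odorant receptors of the nose, 19 had an island in KO alone, 4 in WT alone, 25 in both and 20 in neither. Their median cover was 2.68 kb in KO and 0 in WT. Neighbouring members share islands, so these counts are not independent. The shares of these families outside the windows are not set beside them, so the counts do not show a trait of chromosome ends. On chromosome 10, Olfr769, Olfr770 and Olfr771 were covered in both, Olfr791 and Olfr792 in KO alone by 1 island of 41.5 kb, and Olfr825 in WT alone. Of 6 vomeronasal receptor genes, 0 had an island in KO alone, 4 in WT alone and 2 in both. Vmn2r85, Vmn2r86 and Vmn2r87 lie in a row on chromosome 10 and had 10.6, 7 and 8 kb in WT and no cover in KO. Vmn2r84 beside them had 4.74 kb in KO and 6.24 kb in WT.

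Zinc finger genes with an island had the longer cover in WT. Of 17 distal members, to be read against the same shares over all genes, 0 had an island in KO alone, 1 in WT alone and 4 in both, and cover was longer in WT in each of the 5. Zfp105 had 2.76 kb in KO and 13.7 kb in WT, Zfp386 6.73 and 12.7 kb in the same order, and Zkscan7 5.5 kb in WT alone. Zfp445, known for keeping imprints in the embryo, had 9.5 kb in KO and 13 kb in WT. Zfp950 had 10.5 kb in KO and 13 kb in WT. Of 22 solute carrier genes, Slc6a20a had 8.5 kb in each list, in islands that did not overlap, and Slc18a2 0.123 kb in KO alone. No island lay over any of 31 keratin or keratin-associated genes, 9 Hoxc genes or 57 miRNA hairpins in either list. Of all distal protein-coding genes 84.3% had none either, and neighbouring members of a family are not independent. Of 40 immunoglobulin heavy chain variable segments, Ighv1-80 was touched over 0.157 kb by islands of both.

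Islands at CpG-rich promoters were found mostly in WT. A promoter was called CpG-rich when over 50% of its 300 bases were G or C and the observed over expected CpG ratio was above 0.6, and 632 of the 1744 distal RefSeq promoters were. Of these, 1 (0.158%) lay under an island in KO alone, 10 (1.58%, of 9 genes) in WT alone and 0 in both. Over all autosomal CpG-rich promoters the shares were 0.272% in KO alone and 0.892% in WT alone. Of the other distal promoters, 31 lay under an island in KO alone (2.79%), 27 in WT alone (2.43%) and 22 in both (1.98%). On the rest of the autosomes these shares were 4.48% in KO alone, 3.06% in WT alone and 1.19% in both. Distal promoters under an island had a median of 1 CpG in KO alone, 3 in WT alone and 1 in both, and those under no island had 9. On the rest of the autosomes the median was 2 in KO alone and 2 in WT alone. Olfactory receptor genes own 15 of the 32 distal promoters in KO alone, 4 of the 37 in WT alone and 13 of the 22 in both. The promoters of Tcfl5 and Zranb2 printed above hold 35 and 25 CpG, that of Resf1 holds 13, that of Nalcn 3 and that of Olfr769 1. No promoter of chromosome 18 was used, and whether reads per kb depend on base composition was not tested.

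**Figure D5:**
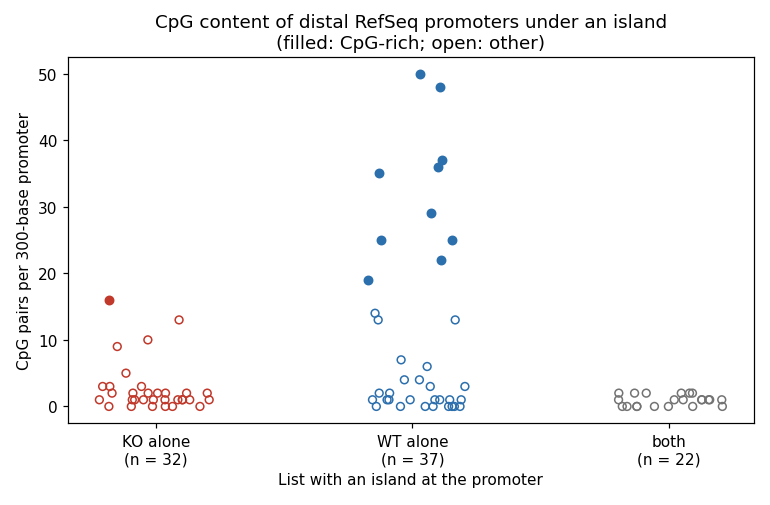
Number of CpG pairs in each distal RefSeq promoter of 300 bases that lay under an island in KO alone (n = 32), in WT alone (n = 37) or in both (n = 22), points spread sideways for view. Filled points are CpG-rich promoters, 1 in KO alone and 10 in WT alone.

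The CpG-rich promoters in WT alone lay under 7 islands on 6 chromosomes. Tcfl5, a transcription factor gene of the testis, lay under chr2:180637001-180656500 with 827 reads at 42.4 per kb, and the nearest KO island was 520.559 kb away. Zranb2, a splicing factor gene, shares its start region with 4930592C13Rik, and chr3:157524001-157535500 covered both with 452 reads at 39.3 per kb. The nearest KO island lay 2.91 kb from the Zranb2 promoter. The promoters of Tmem267 and 3110070M22Rik lay under chr13:119484501-119489500 with 48.8 reads per kb, 108 kb from the nearest KO island. Dennd5b (37.9 reads per kb), Zfp105 (41.4), Slc6a20a (41.1) and Syt14 (42.6) completed them, with KO islands 16.1, 11.4, 25.3 and 0.725 kb away. For Syt14 and Zranb2 the KO island ended just short of the promoter. The 1 CpG-rich promoter in KO alone was that of Gm46490, 16 CpG under chr14:123617001-123633000, an island that also covered the Nalcn promoter.

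At the edge of the rule, the innermost KO member ended 4.997 Mb from the chromosome end (chr17:89981501-89990000, 38.5 reads per kb) and the innermost WT member 4.998 Mb (chr7:140436001-140443000, 42.6). The first islands outside ended at 5.007 Mb in KO (chr4:151491001-151501500, 37.5 reads per kb) and at 5.013 Mb in WT (chr13:115393001-115408500, 34.5). Islands across the edge, counted whole, numbered 3 in KO and 1 in WT.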

How the data were processed

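Bowtie2, SICER 1.1 and mm10 are listed in the submitters' processing notes. SICER's window, gap, threshold, duplicate handling and input use: not given in the sources used here. Per H3K9me3 library, the authors deposited 1 island list with whole-number counts per island, taken as unscaled ChIP reads since the lists name no columns. The input libraries are not analysed here. The KO list holds 10020253 reads in islands and the WT list 5547695, and whole-library depth is unknown. Coordinates were converted to count from 1.

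Distances used UCSC mm10 chromosome sizes, past which no island ran. Genes, promoters and miRNA hairpins came from RefSeq tables of GRCm38.p6. Of 1091 distal protein-coding genes 887 had a promoter there, and 363 genes on scaffolds, recognised by the table's order, or outside the nucleus were left out. Cover and overlap were computed with numpy 2.4.6 and pandas 2.3.3, checked on simulated islands, and intervals are Clopper-Pearson (scipy 1.17.1). Percent cover clips islands at the window edge.

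Named were the 8 longest and 4 densest islands per list, the 8 genes with most cover in each genotype alone, the 6 with most in both, listed T cell and imprinted genes with an island, and up to 3 per genotype of other lists. Clone-type symbols were left out of the rankings of genes, though islands and promoters are named by them where they lie there. The island pairs, promoters, Stard13 and genes without islands were named after their values were seen. Members and lists were chosen with earlier results of these data known. The split at 30 genes, the zones of 2 and 3 Mb, the stretches of 5 Mb and the CpG comparison were added after the data were seen. Serpin and histone lists had no distal member. Some genes that this rule names are not reported here.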

Additional observations from a re-analysis of the deposited data

How the results depend on the processing

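No paired analysis was possible because KO and WT have a single H3K9me3 library each. Neither culture nor library spread can be told apart from genotype, and depth and input signal are unknown. The number ratio of distal islands was 0.908 with the KO list reduced to the WT number, where only KO islands are dropped. The share of distal KO islands overlapped by WT was 38.8% in the last 2 Mb, 24.4% in the last 10 Mb, 21.8% for denser islands (reads per kb over the median), 35.8% with the reduced KO list and 22.0% when 50% of an island had to be covered. The share of distal WT islands overlapped by KO was 56.2% in the last 2 Mb, 39.9% for denser islands, 32.3% with the reduced list and 38.0% at 50%. Cover in the distal windows over the rest of the autosomes, 0.835 in KO and 0.897 in WT, was 1.11 in KO and 1.41 in WT for the last 2 Mb, and 1.06 in KO and 1.1 in WT for denser islands. Genes in KO alone numbered 102 in the last 10 Mb and 22 with the reduced list, and those in WT alone 105 and 83. For denser islands they numbered 45 in KO alone and 37 in WT alone, which turns their order. The wider window holds more genes by construction. The paired ratio of reads per kb was 0.988 at 80% overlap. CpG-rich promoters in KO alone numbered 2 with islands within 1 kb and 0 with stricter GC and CpG limits, settings chosen after the data were seen. Limiting both lists to denser islands also takes away possible partners. The reduced KO list takes away possible partners of WT islands, and a stricter overlap can only lower a share. The causes of the other moves were not tested. Of 219 recomputed values for 13 results, 198 stayed within their interval or 1.5 times. These include all values with an autosome left out, computed for number, cover, overlap, median reads per kb and distal over rest cover. Gene counts, the paired ratio and promoter counts were not recomputed with an autosome left out.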
